A study of Mus musculus with 4 samples.

Results

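The genes described here are 10 genes that write, read or erase methylation of histone H3 on lysine 9 (H3K9), out of 21938 protein-coding genes of the GENCODE vM21 annotation of the mouse genome (GRCm38). They were chosen by name and role, with earlier results of these data known, and none was chosen for its values. Setdb1, Suv39h2, Ehmt1 and Ehmt2 encode H3K9 methyltransferases. Trim28 and Atf7ip encode proteins that work with SETDB1. Cbx1, Cbx3 and Cbx5 encode the HP1 proteins (HP1β, HP1γ and HP1α), and Kdm4a encodes a histone demethylase. Every called peak in each gene and within 5 kb of its transcription start site (TSS) was described.

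Chromatin accessibility (ATACseq) and occupancy by the histone variant H2A.Z (ChIPseq) were measured in 2 livers of male C57Bl/6 mice aged 8 to 12 weeks on a normal diet. The first, titled WT, was Uhrf1-fl/fl with no Cre named. The second, Uhrf1hepKO, was Uhrf1-fl/fl with Alb:Cre, in which the albumin promoter drives Cre in hepatocytes, so that the other cells of the liver keep Uhrf1. The series' design text states that ATACseq was run on the livers used for H2A.Z, and each liver gave 1 library per assay, 4 in all. Without replicates, no test could be made between genotypes, and the 95% intervals below cover counting error only. ATACseq marks DNA that the Tn5 transposase can cut. For H2A.Z, chromatin was digested with micrococcal nuclease and the DNA of H2A.Z nucleosomes was sequenced.

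H3K9 methylation marks heterochromatin. SUV39H2 places the trimethyl mark at repeats near centromeres, and SETDB1 places it at transposable elements, to which TRIM28 brings it through KRAB zinc finger proteins. ATF7IP binds SETDB1 and keeps it stable in the nucleus. EHMT1 (GLP) and EHMT2 (G9a) act as a pair on euchromatic genes. HP1 proteins bind methylated H3K9 through their chromodomain, and KDM4A removes the mark. UHRF1, whose gene is deleted in the Uhrf1hepKO hepatocytes, reads H3K9 methylation and hemimethylated DNA and brings DNMT1 to replicated DNA. H2A.Z is known to occupy the nucleosomes beside the start sites of active or poised genes.

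The ATACseq lists held 10582 peaks in WT and 10764 in Uhrf1hepKO on chromosomes 1 to 19, X and Y, and the H2A.Z lists 51450 and 47135. The highest q-values in the lists were 0.0997 and 0.0993 for ATACseq and 0.05 and 0.0489 for H2A.Z, in the same order. The number of reads per library is not given in the lists. For H2A.Z, the reads piled up at each summit were solved from the deposited fold and p-value. The median pileup was 21 reads in WT and 23 in Uhrf1hepKO, over a most frequent background of 3.10 and 3.30 reads. The lowest pileup of any peak was 11 and 12 reads, so sites with fewer reads cannot appear in the lists, and a missing peak means only that nothing was detectable. Among 21 marker genes of liver cell types, few had a peak within 5 kb of the annotated 5′ end in any list. Of 5 hepatocyte markers, only Ttr had an H2A.Z peak (WT) and only Alb an ATACseq peak (Uhrf1hepKO), to which the start of the coding transcript added an Uhrf1hepKO ATACseq peak at Hnf4a. Of 16 markers of Kupffer, endothelial, bile duct and stellate cells, only Sox9 had a peak. The lists therefore hold little to check the labelled tissue with. In whole liver, a change in cell composition cannot be told apart from a change within hepatocytes. Uhrf1 had 1 peak at its TSS in each of the 4 lists, which does not check its deletion.

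Trim28 and Atf7ip have an annotated 5′ end far upstream of the transcript that encodes the protein. The 5′ end of Trim28 belongs to a non-coding transcript and lies 25038 bp upstream of the first transcript with a consensus coding sequence. For Atf7ip the distance is 12635 bp, for Cbx1 it is 32 bp, and for the other 7 genes it is 0. Distances below are therefore given from the 5′ end of the most upstream transcript with a consensus coding sequence, called the coding TSS, with negative values upstream in the direction of transcription. This start site was chosen after the peaks had been seen.

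The sequences that the peaks of these genes touch are shown first, read from the RefSeq FASTA of GRCm38. The rule set for printing sequence asked for a short ATACseq peak in both livers and no gene met it, so these were chosen after the peaks were seen. The DNA of the Cbx3 WT peak, which has the highest WT ATACseq fold of the 10 genes, is shown whole on the plus strand, and it includes the start of the neighbouring gene Hnrnpa2b1. The others are promoters on the strand of the gene, from 250 bases upstream of the coding TSS to 30 bases within the transcript. Kdm4a, Cbx5 and Atf7ip are the other genes with an ATACseq peak at the coding TSS, Trim28 has H2A.Z on both sides of the start, Suv39h2 lies beside a wide H2A.Z peak, and Ehmt1 has the greatest difference in reads at an H2A.Z summit between the livers. Capitals mark matches on either strand to the GC box (GGGCGG), the CCAAT box (CCAAT), an ETS motif (CCGGAA), an E-box (CACGTG) or a cyclic AMP response element, CRE (TGACGTCA).
Cbx3 WT ATACseq peak (chr6:51469887-51470179, plus strand): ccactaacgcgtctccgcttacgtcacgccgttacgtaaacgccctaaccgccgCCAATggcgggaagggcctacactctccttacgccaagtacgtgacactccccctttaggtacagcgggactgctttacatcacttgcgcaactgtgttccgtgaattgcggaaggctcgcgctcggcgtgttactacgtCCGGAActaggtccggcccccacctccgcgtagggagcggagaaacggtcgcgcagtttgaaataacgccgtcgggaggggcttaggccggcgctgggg
Kdm4a promoter (chr4:118180014-118180293, minus strand): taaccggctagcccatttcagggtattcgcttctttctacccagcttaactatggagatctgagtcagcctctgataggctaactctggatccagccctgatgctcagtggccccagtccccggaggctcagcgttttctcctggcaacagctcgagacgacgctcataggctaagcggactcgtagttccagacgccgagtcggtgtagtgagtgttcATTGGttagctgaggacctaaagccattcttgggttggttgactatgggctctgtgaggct
Cbx5 promoter (chr15:103239787-103240066, minus strand): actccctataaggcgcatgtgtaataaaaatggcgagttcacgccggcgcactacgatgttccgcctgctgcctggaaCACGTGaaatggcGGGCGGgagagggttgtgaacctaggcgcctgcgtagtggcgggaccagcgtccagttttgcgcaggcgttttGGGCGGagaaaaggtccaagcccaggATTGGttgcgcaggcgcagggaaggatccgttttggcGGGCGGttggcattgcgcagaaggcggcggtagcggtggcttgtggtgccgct
Atf7ip promoter (chr6:136518552-136518831, plus strand): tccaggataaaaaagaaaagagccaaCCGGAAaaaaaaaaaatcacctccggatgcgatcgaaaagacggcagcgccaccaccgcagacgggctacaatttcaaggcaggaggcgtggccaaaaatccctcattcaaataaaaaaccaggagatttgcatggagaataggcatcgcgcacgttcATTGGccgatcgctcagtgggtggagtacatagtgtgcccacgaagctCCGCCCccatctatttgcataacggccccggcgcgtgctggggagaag
Trim28 promoter (chr7:13023902-13024181, plus strand): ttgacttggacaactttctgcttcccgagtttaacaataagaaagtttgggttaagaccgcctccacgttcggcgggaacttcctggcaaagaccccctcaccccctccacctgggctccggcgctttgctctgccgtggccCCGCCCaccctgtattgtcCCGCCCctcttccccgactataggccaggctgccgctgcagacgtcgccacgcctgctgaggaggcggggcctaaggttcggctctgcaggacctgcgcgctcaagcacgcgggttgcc
Suv39h2 promoter (chr2:3475002-3475281, minus strand): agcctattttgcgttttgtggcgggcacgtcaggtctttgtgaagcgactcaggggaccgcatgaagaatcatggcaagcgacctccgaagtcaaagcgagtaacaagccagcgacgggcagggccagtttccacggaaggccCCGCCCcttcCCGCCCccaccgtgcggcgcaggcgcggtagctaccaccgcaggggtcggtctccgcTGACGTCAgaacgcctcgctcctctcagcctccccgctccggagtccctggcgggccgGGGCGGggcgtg
Ehmt1 promoter (chr2:24919585-24919864, minus strand): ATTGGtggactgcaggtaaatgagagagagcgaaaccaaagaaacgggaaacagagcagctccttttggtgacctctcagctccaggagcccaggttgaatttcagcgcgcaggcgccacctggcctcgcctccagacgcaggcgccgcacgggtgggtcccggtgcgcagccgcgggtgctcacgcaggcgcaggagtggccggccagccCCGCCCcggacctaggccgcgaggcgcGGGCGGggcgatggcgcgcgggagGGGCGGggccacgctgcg

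The promoters were rich in CpGs. Within 500 bp of the coding TSS the 10 genes held a median of 91 CpGs, with a range from 41 at Kdm4a to 105 at Cbx3, against a median of 43 over all protein-coding genes. The GC box was found in 8 of the 10 promoters and in 44.0% of all promoters of this length. The motif shares given here are over all promoters, and none was computed for promoters of like CpG content. The genes without one were Cbx3 and Kdm4a. The CCAAT box was found in 5 (Setdb1, Ehmt1, Atf7ip, Cbx5 and Kdm4a), against 37.8% of all promoters. The ETS motif was found in 2 (Setdb1, with 3 matches, and Atf7ip), against 17.3%, and the E-box in 2 (Ehmt2, with 2 matches, and Cbx5), against 7.49%. The CRE was found only in Suv39h2, 40 bases upstream of the start, against 2.44%. No match to the NRF1 motif (GCGCATGC, 3.61% of all promoters), the YY1 motif (AAGATGGC, 2.36%) or the TATA box (TATAAA, 12.2%) lay in the windows of the 10 genes. No motif contains the letters of another. The CCAAT box and ETS motif in the Cbx3 peak lie further upstream than the window that was scanned in all genes.

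Within 5 kb of the coding TSS, all 10 genes carried H2A.Z in both livers, and 4 of them (Atf7ip, Cbx3, Cbx5 and Kdm4a) also had an ATACseq peak there in both livers. Among all protein-coding genes, 53.0% in WT and 51.2% in Uhrf1hepKO had a called H2A.Z peak in this window, and 30.4% and 28.1% a called ATACseq peak. Measured from the annotated 5′ end of the gene, H2A.Z peaks were found for 8 of 10 genes in both livers, all but Trim28 and Atf7ip, against 52.8% of all genes in WT and 51.0% in Uhrf1hepKO. ATACseq peaks were then found for 3 of 10 genes in both livers, against 30.2% and 27.9%. No gene of the 10 had a peak in this window in 1 liver only. Over all genes, 7.19% had an ATACseq peak in WT only and 4.85% in Uhrf1hepKO only, and 3.95% and 2.19% had an H2A.Z peak in 1 list only in the same order.

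CpG content moves with these shares. Of the 10136 protein-coding genes with 41 to 105 CpGs within 500 bp of the coding TSS, 76.8% in WT and 74.6% in Uhrf1hepKO had an H2A.Z peak in the window. The shares for ATACseq were 49.0% and 45.2%, above the 4 of 10 of the H3K9 and HP1 genes. These 10136 genes held a median of 66 CpGs, against 91 for the 10 genes, so the set is not matched to them in CpG content. The part of CpG content in the counts of the 10 genes was not tested.

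**Figure D1:**
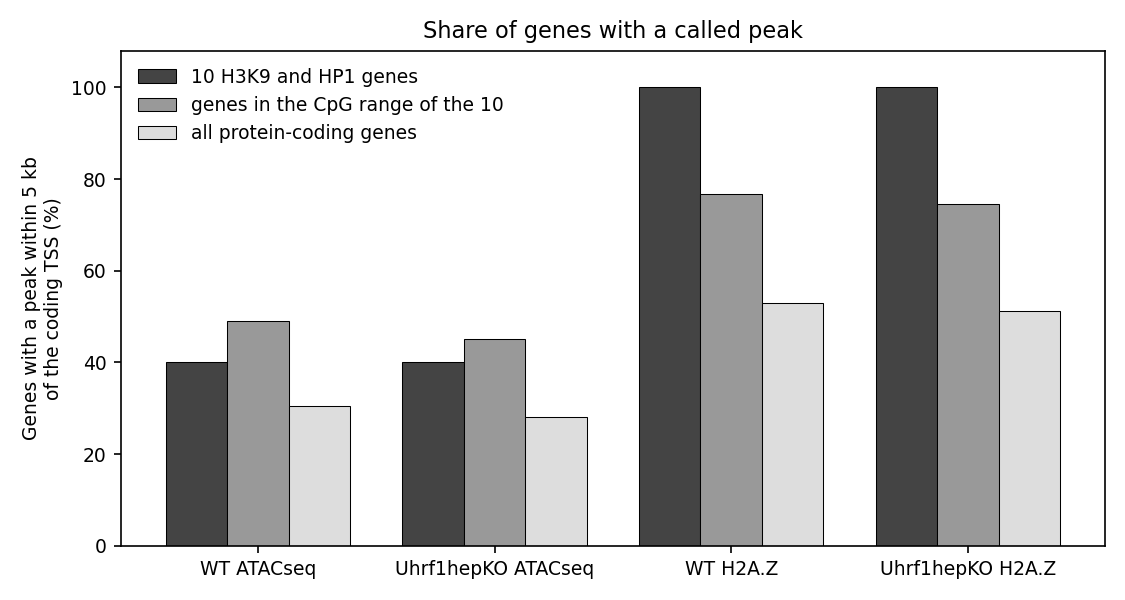
Percent of genes with a called peak within 5 kb of the coding TSS in each of the 4 libraries, for the 10 H3K9 and HP1 genes, for the 10136 protein-coding genes with 41 to 105 CpGs around the coding TSS, and for all 21938 protein-coding genes. All 10 genes carried H2A.Z in both livers and 4 of 10 carried an ATACseq peak. The genes in the CpG range held a median of 66 CpGs, against 91 for the 10 genes.

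The regions of the 10 genes held 5 ATACseq peaks in WT and 4 in Uhrf1hepKO, and 26 and 31 H2A.Z peaks. Of the H2A.Z summits, 15 of the 26 in WT and 20 of the 31 in Uhrf1hepKO lay within 1 kb of the coding TSS. In the regions of all protein-coding genes, drawn the same way, 51.0% of the WT and 51.3% of the Uhrf1hepKO summits did so. Of all 21938 genes, 33.7% had a WT summit in the 500 bp upstream of the coding TSS, and 9 of the 10 genes did, all but Atf7ip. In Uhrf1hepKO the background was 32.5% and 7 genes had such a summit, since the summits of Suv39h2 and Kdm4a lay further upstream in wide peaks. In the 500 bp downstream, the background was 24.5% in WT and 22.3% in Uhrf1hepKO. Trim28, Atf7ip and Kdm4a had a downstream summit in WT, and these 3 and Cbx1 and Cbx5 had one in Uhrf1hepKO. This distance was chosen after the positions were seen.

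**Figure D2:**
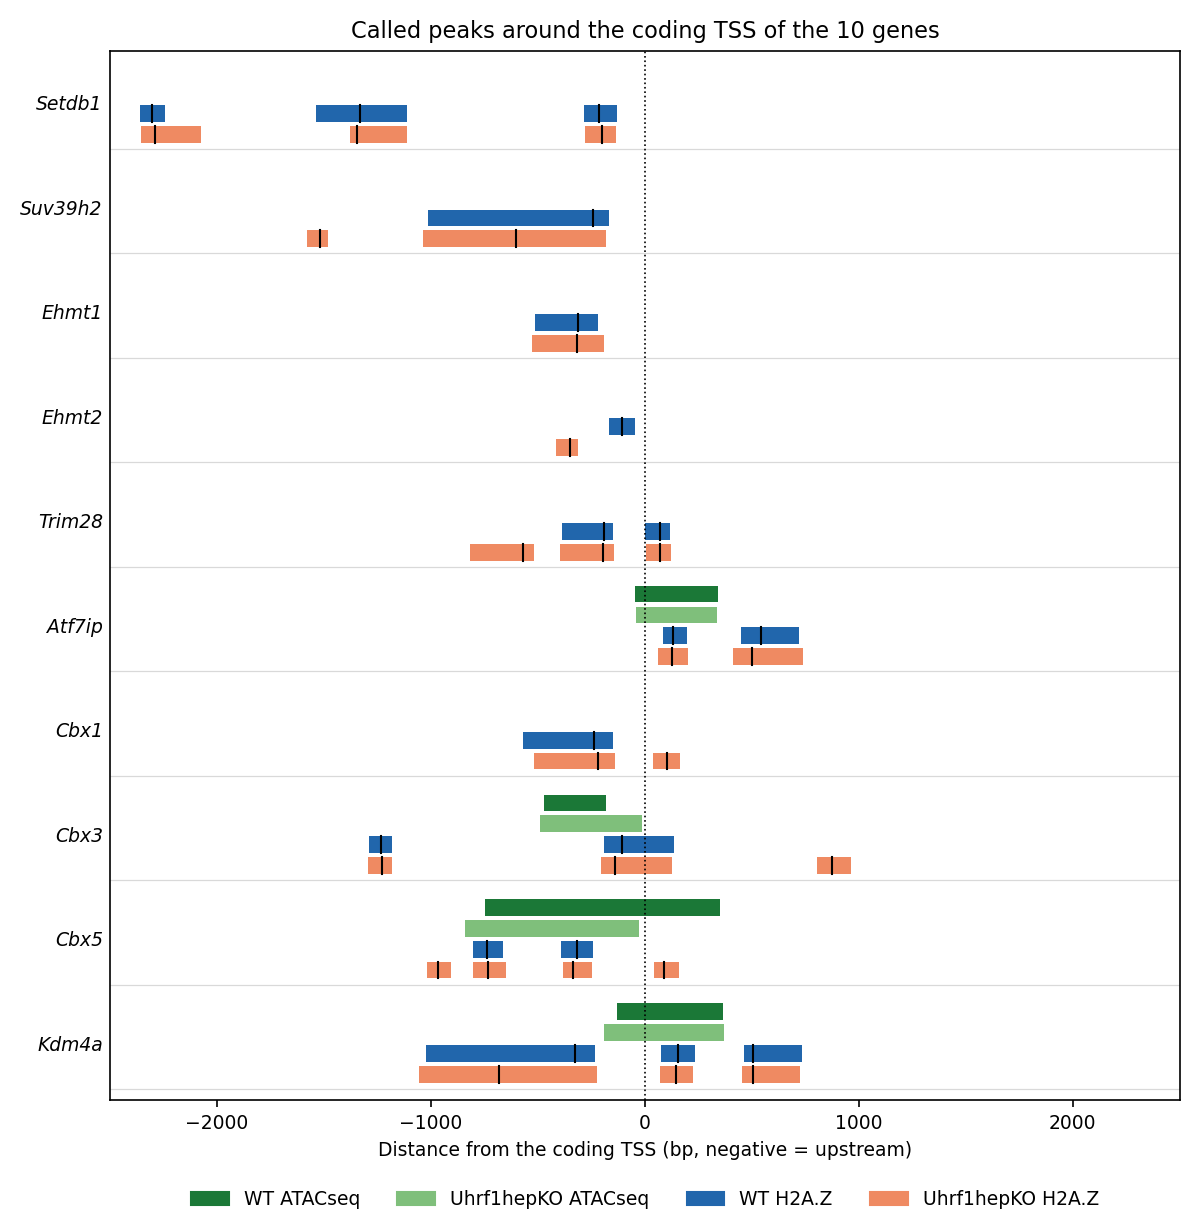
Called peaks within 2.5 kb of the coding TSS of each gene, drawn to scale as distance in bp, with 1 row per library and black ticks at the H2A.Z summits. In WT, 9 of the 10 genes had an H2A.Z summit in the 500 bp upstream, and ATACseq peaks lay at Atf7ip, Cbx3, Cbx5 and Kdm4a. Peaks further away are given in the text only.

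Among the methyltransferases, none had an ATACseq peak in its region in either liver. Setdb1 (chr3:95323525-95357202, minus strand) had 3 H2A.Z peaks in each liver, all upstream. The peak nearest the start had its summit at −216 bp in WT, with a pileup of 45 reads (95% interval 32.8 to 60.2), and at −199 bp in Uhrf1hepKO, with 47 reads (34.5 to 62.5). Its fold over background was 11.2 in both livers, at the 98.2nd percentile of the WT list and the 97.4th of the Uhrf1hepKO list. The summit lies in an exon of Gm37500, an unconfirmed transcript on the opposite strand. Further upstream, the peak at −1331 bp in WT and −1348 bp in Uhrf1hepKO had 25 and 21 reads. The peak at −2302 and −2290 bp had 23 and 33 reads, and the local background there was 3.69 and 4.93 reads. The intervals of all 3 ratios between the livers held 1. The nearest ATACseq peaks were different sites, 77029 bp upstream of the coding TSS in WT and 75322 bp downstream in Uhrf1hepKO.

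Suv39h2 (chr2:3455815-3475031, minus strand) had a wide H2A.Z peak upstream of the start, of 849 bp in WT and 856 bp in Uhrf1hepKO. The pileup was 39 reads (27.7 to 53.3) in WT and 43 (31.1 to 57.9) in Uhrf1hepKO, and the fold was 9.75 and 10.2. The highest point lay at −241 bp in WT and at −601 bp in Uhrf1hepKO, a shift of 360 bp inside peaks with nearly the same ends. A second peak at −1518 bp, with 19 reads, was called only in Uhrf1hepKO. ATACseq peaks were found in both livers, but the nearest was 37773 bp from the start in WT and 37738 bp in Uhrf1hepKO.

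Ehmt1 (chr2:24789928-24919614, minus strand) had a single H2A.Z peak in each liver, although the gene spans 129687 bp. The summits lay 6 bp apart, at −313 bp in WT and −319 bp in Uhrf1hepKO. The pileup was 40 reads (28.6 to 54.5) in WT and 24 reads (15.4 to 35.7) in Uhrf1hepKO, so the WT value was the higher and the intervals overlap. The ratio of Uhrf1hepKO to WT was 0.60 (exact binomial interval 0.346 to 1.02), at the 0.257th percentile of all 34226 matched peaks. The fold went from the 95.7th percentile of the WT list to the 59.0th of the Uhrf1hepKO list. This pair was singled out after its value was seen, among 21 pairs, and 1 library per condition gives no measure of the spread between mice.

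Ehmt2 (chr17:34898469-34914052, plus strand), the partner of Ehmt1, had 2 H2A.Z peaks in each liver. Its start lies 204 bp from the annotated 5′ end of C2, a complement gene on the opposite strand, whose coding TSS lies 16369 bp away. In the 204 bp between the 5′ ends, WT had a peak with its summit at −109 bp and a pileup of 22 reads. In Uhrf1hepKO the nearest peak had its summit at −352 bp, in an exon of C2, with 20 reads, and the 2 peaks did not overlap. The other peak, at −4453 bp in WT and −4437 bp in Uhrf1hepKO, lay in an intron of C2 and an untranslated region of Zbtb12, with 22 and 24 reads. The coding TSS of Zbtb12, at −3910 bp, is nearer to this peak than that of Ehmt2. With folds from 4.88 to 5.81, Ehmt2 had no peak in the top 10% of either list.

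Of the partners of SETDB1, Trim28 (chr7:12999114-13031035, plus strand) has its annotated 5′ end 922 bp from that of Slc27a5, a gene of bile acid conjugation. No peak lay within 5 kb of the Trim28 5′ end, and the coding TSSs of these genes lie 26002 bp apart. The H2A.Z peaks of Trim28, 6 in each liver, fell mostly at the coding TSS and at a site far upstream of it. At the coding TSS a pair of peaks flanked the start in both livers. The upstream summit lay at −190 bp in WT and −196 bp in Uhrf1hepKO, with 22 reads (13.8 to 33.3) and 26 reads (17 to 38.1). The downstream summit lay at +70 bp in both, with 23 and 27 reads. A further peak at −570 bp, with 18 reads, was called only in Uhrf1hepKO.

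The upstream site of Trim28 is the start of Zbtb45, a zinc finger gene that lies inside the long Trim28 transcript on the opposite strand. It held the only ATACseq peak of Trim28, at chr7:13009238-13009938, which was called in WT only, with a fold of 3.52 at the 7.30th percentile of its list. H2A.Z summits there lay at −14680 bp in WT and −14638 bp in Uhrf1hepKO (14 and 20 reads) and at −14083 and −14058 bp (16 and 15 reads). A summit at −14396 bp (21 reads) was called only in WT and one at −13770 bp (16 reads) only in Uhrf1hepKO. A WT peak at −10208 bp, with 17 reads, also had no counterpart.

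Atf7ip (chr6:136506167-136610862, plus strand) had an ATACseq peak over the coding TSS in both livers, of 385 bp in WT and 379 bp in Uhrf1hepKO, with their centres at the same base. The fold was 3.73 in WT, at the 20.4th percentile, and 4.0 in Uhrf1hepKO, at the 48.1st percentile. Gm44140, a non-coding RNA annotated as sharing a bidirectional promoter, starts 229 bp inside Atf7ip on the opposite strand. All H2A.Z at this gene lay downstream of the coding TSS. The first summit was at +132 bp in WT and +127 bp in Uhrf1hepKO, with 25 reads (16.2 to 36.9) and 29 reads (19.4 to 41.6), under the ATACseq peak. The second was at +541 and +502 bp, with 32 and 37 reads, in an exon and outside the ATACseq peak.

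Other H2A.Z peaks of Atf7ip lay in introns. The pair at +14264 bp in WT and +14258 bp in Uhrf1hepKO had 15 reads (8.40 to 24.7) and 25 reads (16.2 to 36.9). The ratio of Uhrf1hepKO to WT was 1.67 (0.845 to 3.40), the highest of the 10 genes. WT peaks at +6138 bp (13 reads) and +13704 bp (18 reads) and a Uhrf1hepKO peak at +13276 bp (14 reads) had no overlap in the other list.

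The HP1 genes all had H2A.Z within 500 bp upstream of the coding TSS, and Cbx3 and Cbx5 had ATACseq peaks, while Cbx1 had none. Cbx1 (chr11:96789127-96808640, plus strand) had its summit at −240 bp in WT and −217 bp in Uhrf1hepKO. The pileup was 38 reads (26.9 to 52.2) in WT and 49 (36.3 to 64.8) in Uhrf1hepKO, with folds of 9.51 and 11.6, and the ratio was 1.29 (0.827 to 2.02). Peaks at −3983 bp (23 reads) and +104 bp (21 reads) were called only in Uhrf1hepKO. The nearest ATACseq peak lay upstream in both livers, 11341 bp away in WT and 11337 bp away in Uhrf1hepKO.

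Cbx3 (chr6:51470360-51483704, plus strand) starts 466 bp from Hnrnpa2b1 on the opposite strand, which encodes a protein that binds RNA. Its ATACseq peak covered the Hnrnpa2b1 start in both livers and ended upstream of the Cbx3 start. In WT it was 293 bp wide, from −473 to −181 bp, with a fold of 6.30 at the 91.5th percentile. In Uhrf1hepKO it was 477 bp wide, from −489 to −13 bp, with a fold of 5.05 at the 79.1st percentile. H2A.Z covered the Cbx3 start, with summits at −109 bp in WT and −140 bp in Uhrf1hepKO and with 25 and 23 reads. A second summit at −1233 and −1230 bp, in an exon of Hnrnpa2b1, had 22 and 27 reads. The accessible DNA thus lay between H2A.Z peaks in both livers and overlapped the one at Cbx3. A weak peak at +875 bp, with 14 reads, was called only in Uhrf1hepKO.

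Cbx5 (chr15:103191544-103239816, minus strand) starts 616 bp from Hnrnpa1 on the opposite strand, which encodes another protein that binds RNA. The ATACseq peak was the widest of the 10 genes, 1099 bp in WT and 814 bp in Uhrf1hepKO, with folds of 3.95 and 3.69. In WT it ran from −747 bp to +351 bp and covered the start, and in Uhrf1hepKO it ran from −841 bp to −28 bp. H2A.Z peaks lay under it in both livers. The summit at −317 bp in WT and −335 bp in Uhrf1hepKO had 49 reads (36.3 to 64.8) and 40 reads (28.6 to 54.5), and its fold of 12.2 was at the 99.2nd percentile of the WT list. The summit at −736 and −734 bp, in an intron of Hnrnpa1, had 22 and 32 reads. The first of these was higher in WT and the second in Uhrf1hepKO, and the intervals overlap at both. Peaks at −968 bp (24 reads) and +90 bp (23 reads) were called only in Uhrf1hepKO.

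Kdm4a (chr4:118136957-118180043, minus strand), the demethylase gene, had an ATACseq peak over its start in both livers. It was 496 bp wide in WT, with a fold of 5.61 at the 83.5th percentile, and 563 bp wide in Uhrf1hepKO, with a fold of 6.34 at the 93.5th percentile. It had the fewest CpGs of the 10 genes and no other annotated gene starts within 5 kb of it. All 3 H2A.Z peaks were found in both livers. The summit at +155 bp in WT and +144 bp in Uhrf1hepKO, under the ATACseq peak, had 49 reads (36.3 to 64.8) and 48 reads (35.4 to 63.6). The summit at +506 bp in both had 26 and 27 reads. The upstream peak was 789 bp wide in WT and 831 bp in Uhrf1hepKO, with 39 and 40 reads. Its highest point lay at −328 bp in WT and −681 bp in Uhrf1hepKO, a shift of 353 bp within nearly the same ends, as at Suv39h2.

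**Figure D3:**
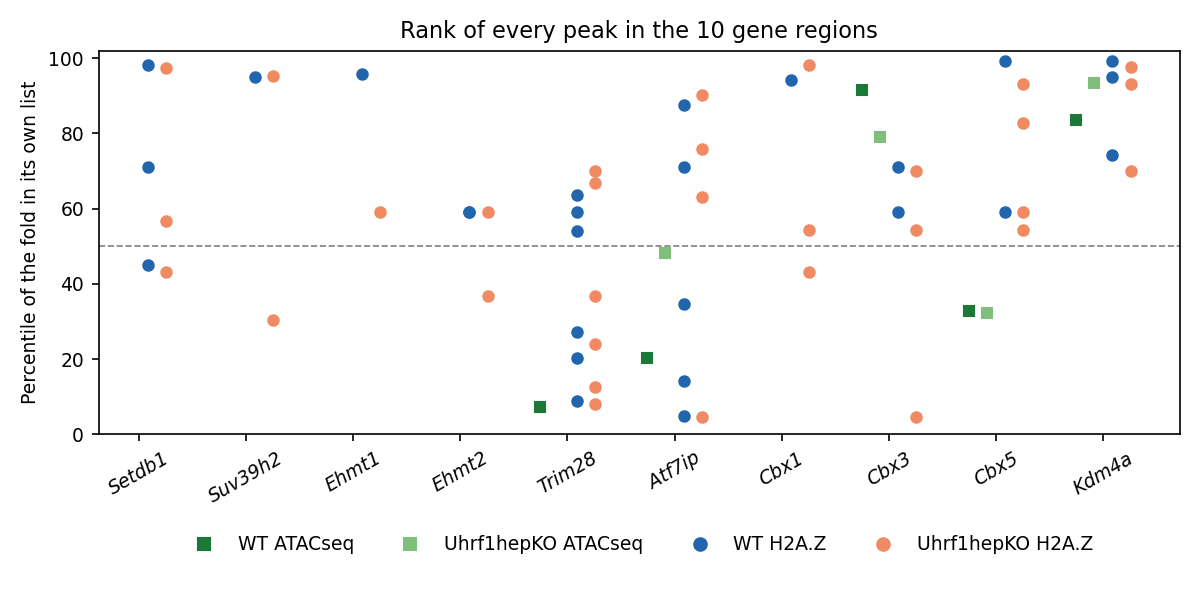
Percentile of the fold of every peak in the 10 gene regions within its own list of peaks (squares ATACseq, circles H2A.Z, dashed line at the list's median). Of the H2A.Z peaks, 7 in each liver stand in the top 10%, and the Ehmt1 peak goes from 95.7 in WT to 59.0 in Uhrf1hepKO.

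Every ATACseq peak of the 10 genes overlapped an H2A.Z peak of the same liver, 5 of 5 in WT and 4 of 4 in Uhrf1hepKO. Among all ATACseq peaks within 5 kb of the coding TSS of a gene, 46.7% of 5753 did so in WT and 39.8% of 5382 in Uhrf1hepKO. In the other direction, 7 of the 26 WT and 5 of the 31 Uhrf1hepKO H2A.Z peaks overlapped an ATACseq peak. Over the whole H2A.Z lists, which are not limited to gene regions, this share was 8.64% in WT and 7.25% in Uhrf1hepKO. H2A.Z without a called ATACseq peak was thus the usual case in the whole lists too. At Setdb1 and Cbx1, without an ATACseq peak, the highest H2A.Z pileup was 47 and 49 reads in Uhrf1hepKO and 45 and 38 in WT. At Kdm4a and Cbx5, which had both, it was 48 and 40 reads in Uhrf1hepKO and 49 and 49 in WT. Cbx3 and Atf7ip, which also had both, reached 27 and 37 in Uhrf1hepKO and 25 and 32 in WT. These genes were picked after the values were seen, and the relation was not tested.

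The next comparison was between the livers. Of the ATACseq peaks, 4 of 5 in WT (80.0%, Wilson interval 37.6 to 96.4%) overlapped a peak of the other liver, against 61.3% of the whole list, and the exception was the peak at Zbtb45. All 4 in Uhrf1hepKO did so (interval 51.0 to 100%), against 60.3%. Of the H2A.Z peaks, 21 of 26 in WT (80.8%, 62.1 to 91.5%) and 21 of 31 in Uhrf1hepKO (67.7%, 50.1 to 81.4%) overlapped, against 70.0% and 75.6% of the lists. All 4 intervals include the share of the whole list. The 5 WT peaks without a counterpart had 13 to 22 reads and the 10 Uhrf1hepKO peaks had 14 to 24 reads, whereas every site with 25 or more reads in either liver was found in both.

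At the 21 sites matched between the livers, the pileup was higher in Uhrf1hepKO at 15 and higher in WT at 6. Over all matched peaks, 59.5% were higher in Uhrf1hepKO and 32.5% in WT, so the whole lists leaned the same way. The median log2 ratio of Uhrf1hepKO to WT was 0.14, with a range from −0.74 at Ehmt1 to 0.74 in the Atf7ip intron. Over all 34226 matched peaks the median was 0.09. A pileup at least 1.5 times higher in Uhrf1hepKO was found at 1 of the 21 sites and at 5.25% of all matched peaks. A pileup at least 1.5 times higher in WT was found at 1 site and at 1.24% of all. None of the 21 intervals of the ratio excluded 1, and the interval of Ehmt1 ended at 1.02. The libraries were not scaled to each other, so a ratio of 1 need not mean equal occupancy. The summits of the 2 livers lay a median of 16 bp apart, as over all matched peaks, and 19 of the 21 lay within 50 bp, all but those of the wide peaks of Suv39h2 and Kdm4a, against 80.1% of all matched peaks.

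**Figure D4:**
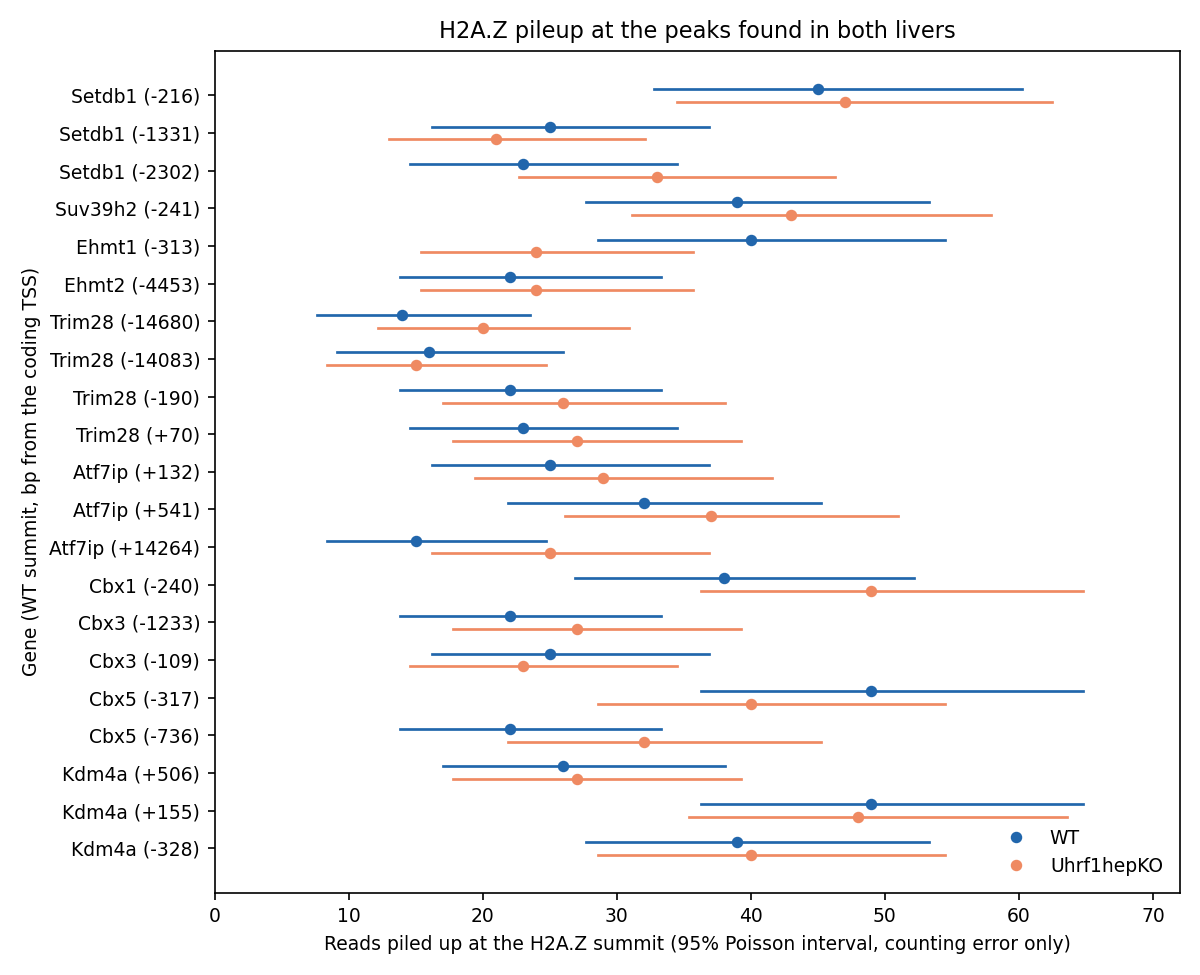
Reads piled up at the summit of the 21 H2A.Z peaks found in both livers, with exact Poisson 95% intervals that cover counting error only. The intervals of WT and Uhrf1hepKO overlap at every site, and Ehmt1 (40 and 24 reads) shows the largest difference in reads.

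The wider pathway was described with 29 other genes of H3K9 methylation, counted within 5 kb of the 5′ end. ATACseq peaks were found at 17 of them in WT and 14 in Uhrf1hepKO, against 30.2% and 27.9% of all protein-coding genes. H2A.Z was found at 24 and 22, against 52.8% and 51.0%. Among genes with 41 to 105 CpGs, counted from the coding TSS, the shares were higher than among all genes. They were 49.0% and 45.2% for ATACseq and 76.8% and 74.6% for H2A.Z. The CpG content of the 29 genes was not taken into account, and they were chosen with earlier results of these data known. By role, H2A.Z was found in WT at 4 of 5 writers, 5 of 8 partners of writers, 7 of 7 partners of HP1 and 8 of 9 erasers. The highest WT ATACseq folds were those of the methyltransferase gene Setdb2 (7.07), of Mphosph8 (6.90), whose protein binds methylated H3K9 in the HUSH complex, and of the demethylase gene Kdm4d (6.56). The highest WT H2A.Z folds were those of Chaf1a (12.7), which encodes the large subunit of the CAF-1 histone chaperone, Zfp644 (11.0), a partner of the EHMT enzymes, and Incenp (10.7), a subunit of the chromosomal passenger complex.

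Some of these genes had a peak in 1 list only, which was so for 7.19% of all genes for ATACseq in WT, 3.95% for H2A.Z in WT and 2.19% for H2A.Z in Uhrf1hepKO. ATACseq peaks were called only in WT at Zfp644 (fold 4.43), Fam208a (3.63), which encodes a subunit of the HUSH complex, and Daxx (4.16), which encodes a chaperone of histone H3.3. H2A.Z was called only in WT at Mecom (4.39), Adnp (6.58) and Jmjd1c (3.66), and only in Uhrf1hepKO at Kdm4c (4.42). Measured from the coding TSS, Mecom had H2A.Z in both livers and Jmjd1c in neither. All of these folds lay below the median of their list except those of Zfp644 and of Adnp, which encodes a zinc finger protein that works with HP1. The medians were 4.31 for WT ATACseq, 5.12 for WT H2A.Z and 5.35 for Uhrf1hepKO H2A.Z. These differences were not tested.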

How the data were processed

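The members and gene lists were chosen with earlier results of these data known. The authors aligned reads with BWA-MEM to GRCm38.p4, cleaned and sorted them with PICARD, with duplicates removed for ChIPseq, and called peaks per library with MACS2, in broad mode for ATACseq. The labels also name FastQC 0.11.5 and Trimmomatic. The H2A.Z lists give a summit for each peak, the form of narrow peaks, although the paper does not state their mode. Whether the H2A.Z calls used a control library and with which MACS2 version they were made is not given in the sources used here. ATACseq reads are described as single-end, yet ATACseq peaks were called with the option for paired-end alignments. For ChIPseq, the paper's methods name both single-end and paired-end reads. The deposited lists give a fold, the ratio of pileup to local background (averaged over ATACseq peaks, at the summit for H2A.Z), −log10 p- and q-values made the same way, and a deposited score of 10 times −log10 q that was not used here. Because the libraries were not scaled to each other, folds were ranked only within a list.

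GENCODE vM21 was used to place the peaks of chromosomes 1 to 19, X and Y. Overlaps needed 1 bp. H2A.Z pileups were solved from fold = (pileup + 1)/(background + 1) and the Poisson p-value, within 0.001 in −log10 p, for 100% of peaks. Intervals were Wilson, exact Poisson and exact binomial. Promoters ran from −250 to +30 bp. All 10 members are named, with genes head to head within 1 kb, genes under their peaks, and of 29 pathway genes the 3 highest WT folds per assay and those in 1 list only. Steps were tested on simulated data, where all 968 planted pileups were recovered. Software was scipy 1.17.1, numpy 2.4.6, matplotlib 3.10.9 and pandas 2.3.3 under Python 3.11.15.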

Additional observations from a re-analysis of the deposited data

How the results depend on the processing

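Of 100 recomputed values, 84 kept to the reported value within its interval or within 1.5 times. This is a weak check, since among the 84 were counts of 0 that stayed 0. The intervals of the ATACseq shares were also wide, so that a fall from 100% to 66.7% in Uhrf1hepKO counted as kept. No paired analysis was possible because each condition has 1 library, and for the same reason no library could be left out. With the start of any transcript as TSS, 5 genes had a WT ATACseq peak within 5 kb (Trim28 and Atf7ip were added to the 3), and 1 gene, Trim28, had one in WT only. At a q-value of 0.01 or lower, 1 gene, Cbx5, had an ATACseq peak in WT only and 3 WT ATACseq peaks were left in the gene regions. This count was made from the annotated 5′ end. At the coding TSS, the Atf7ip peak passed this cut in Uhrf1hepKO only (−log10 q 2.39, against 1.54 in WT). Only Cbx3 and Kdm4a then kept an ATACseq peak in both livers. With peaks at or above the median fold, 2 ATACseq peaks were left in each liver and 100% of those in WT overlapped. Gene bodies alone held 2 ATACseq peaks in Uhrf1hepKO and 14 and 16 H2A.Z peaks in WT and Uhrf1hepKO. The 5 kb windows of the 5′ ends alone held 3 ATACseq and 15 H2A.Z peaks in WT, of which 100% and 93.3% overlapped. When peaks within 500 bp counted as shared, the shares of H2A.Z peaks were 92.3% in WT and 93.5% in Uhrf1hepKO. With the coding TSS, added after seeing the data, the genes with H2A.Z went from 8 to 10 and with ATACseq from 3 to 4. Depth limits the lists, since sites with fewer than 11 or 12 reads at the H2A.Z summit are missing, and counting error alone leaves an interval of 0.586 to 2.04 for the ratio of 24 to 22 reads.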
